A study of Mus musculus with 6 samples.

Results

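The genes described here are 53 transcription factors of mesenchyme and limb, chosen by symbol from the table of read counts as developmental regulators of fibroblasts outside the Hox clusters. They are 53 of the 30445 genes in the table. All 53 passed the filter on low counts, which left 18613 genes for testing. RNA was sequenced from 6 libraries of wild-type mouse cells, in 3 groups of 2: embryonic fibroblasts (MEF), a myeloid-like cell complex (MCC) and induced macrophages (iMac). The title of the series names the reprogramming of fibroblasts to macrophages by c-Myc, but the label of each library gives only a cell type and the wild-type genotype, with no transgene, treatment, time point or age. The labels do not say whether the 2 libraries of a group came from separate cultures, so the p-values measure only the spread between these libraries, which may be technical.

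Factors of this kind give embryonic fibroblasts their mesenchymal and positional identity. Snail, Twist and Zeb proteins repress epithelial genes such as the cadherin gene Cdh1 and drive the epithelial to mesenchymal transition. Prrx, Msx, T-box, Osr and Gli factors pattern the limb bud and the body wall, and cultured fibroblasts keep much of that programme. Some of the families also work in blood: Zeb2 is needed for the identity of several macrophage populations, Runx1 is a founding factor of blood formation, and Ebf1 commits cells to the B lineage. Levels are given as CPM, the read count relative to library size, scaled between libraries with the TMM method. Differences are log2 fold changes from edgeR's quasi-likelihood test, with their standard errors (SE). A gene was called where its p-value, adjusted with the Benjamini-Hochberg method over all 18613 genes, was under 0.05.

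Library totals ran from 34389817 to 39174367 counts. The cell labels were checked against marker lists. All 12 macrophage markers were called higher in MCC and in iMac than in MEF, and their summed level was 22.9 and 47.6 CPM in MEF, 13994 and 13438 CPM in MCC, and 24883 and 20637 CPM in iMac. Of 12 fibroblast markers, 10 were called lower in MCC and 11 in iMac, with sums of 39991 and 19815 CPM in MEF, 3598 and 1785 CPM in MCC, and 681 and 708 CPM in iMac. Vim and Fn1 made up most of the iMac sum. The myeloid receptor gene Csf1r had 0.407 and 0.464 CPM in MEF, 2005 and 2033 CPM in MCC, and 2922 and 2698 CPM in iMac.

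The promoters of 3 members are shown first because these genes mark the range of outcomes: Zeb2 rose, Sox4 was lower in MCC alone, and Snai1 fell in both. Each is the 250 bases before the start of a RefSeq transcript on GRCm38.p6, read 5' to 3' along the gene's strand. The Zeb2 window is chr2:45117443-45117692 on the minus strand, the most upstream of 4 Zeb2 windows. The Sox4 window is chr13:28953700-28953949 on the minus strand, and the Snai1 window is chr2:167537945-167538194 on the plus strand. Capitals mark a match to a searched motif.
Zeb2: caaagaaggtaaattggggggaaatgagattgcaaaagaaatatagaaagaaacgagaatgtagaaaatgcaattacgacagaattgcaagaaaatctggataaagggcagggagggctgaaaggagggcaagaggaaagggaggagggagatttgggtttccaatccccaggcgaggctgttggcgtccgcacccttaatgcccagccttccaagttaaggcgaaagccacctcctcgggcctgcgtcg
Sox4: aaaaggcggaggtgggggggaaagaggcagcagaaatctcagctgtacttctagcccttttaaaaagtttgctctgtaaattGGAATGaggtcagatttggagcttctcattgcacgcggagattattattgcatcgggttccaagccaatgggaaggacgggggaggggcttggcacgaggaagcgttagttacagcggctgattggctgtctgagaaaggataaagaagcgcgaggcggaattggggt
Snai1: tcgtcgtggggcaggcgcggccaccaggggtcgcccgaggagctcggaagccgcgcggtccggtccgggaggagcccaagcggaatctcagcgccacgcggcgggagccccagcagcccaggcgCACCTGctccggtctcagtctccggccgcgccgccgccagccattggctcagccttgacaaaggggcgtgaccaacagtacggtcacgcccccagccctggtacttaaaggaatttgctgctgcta
The capitals in the Sox4 window are GGAATG, the reverse complement of the TEAD motif CATTCC, starting 168 bases before the start of the RefSeq transcript. Those in the Snai1 window are CACCTG, the E-box bound by Snail and Zeb proteins, 126 bases before the start.

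RefSeq gave 35 such windows for 29 of the 53 members. The Myc E-box CACGTG was in 0 of these 35 windows and in 6.02% of all 32851 windows. The E-box CAGGTG or its reverse complement CACCTG was in 3 of the 35 (Snai1, Msx1 and Foxp1), or 8.57%, against 17.2% of all windows. CATTCC or GGAATG was in 4 of the 35 (Prrx1, a downstream window of Zeb2, Foxp1 and Sox4), or 11.4%, against 12.6% of all. The purine-rich motif GAGGAAGT, of the kind bound by the macrophage factor PU.1, was in 0 of the 35 and in 2.44% of all. Both strands were searched and no motif overlaps another. The members' windows had a median GC content of 57.6%, against 52.4% for all windows. A match is a string of letters and does not show that a factor binds there, and a window without one says nothing about the factor.

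Most members were fibroblast genes that fell by a wide margin. In MCC, 44 of the 53 (83.0%) were called lower than in MEF and 1, Zeb2, was called higher. Over all tested genes, 29.6% were called lower and 23.4% higher in that comparison. In iMac, 49 of the 53 (92.5%) were called lower and again only Zeb2 was called higher, beside 32.4% lower and 25.1% higher over all genes. The members were chosen as fibroblast factors, and 51 had a mean of 1 CPM or more in MEF, against 25 in MCC and 8 in iMac. A member that passed the filter only through its MEF level could hardly be called higher. The shares over all genes are therefore not a like comparison. The median fitted log2 fold change of the 53 was -4.90 in MCC and -9.14 in iMac. With members that had no counts set at their bound these medians were -4.83 and -7.81, beside -0.05 and -0.06 for all tested genes. The comparisons share the MEF libraries. In bulk RNA, fewer cells of a type and less RNA per cell cannot be told apart.

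**Figure D1:**
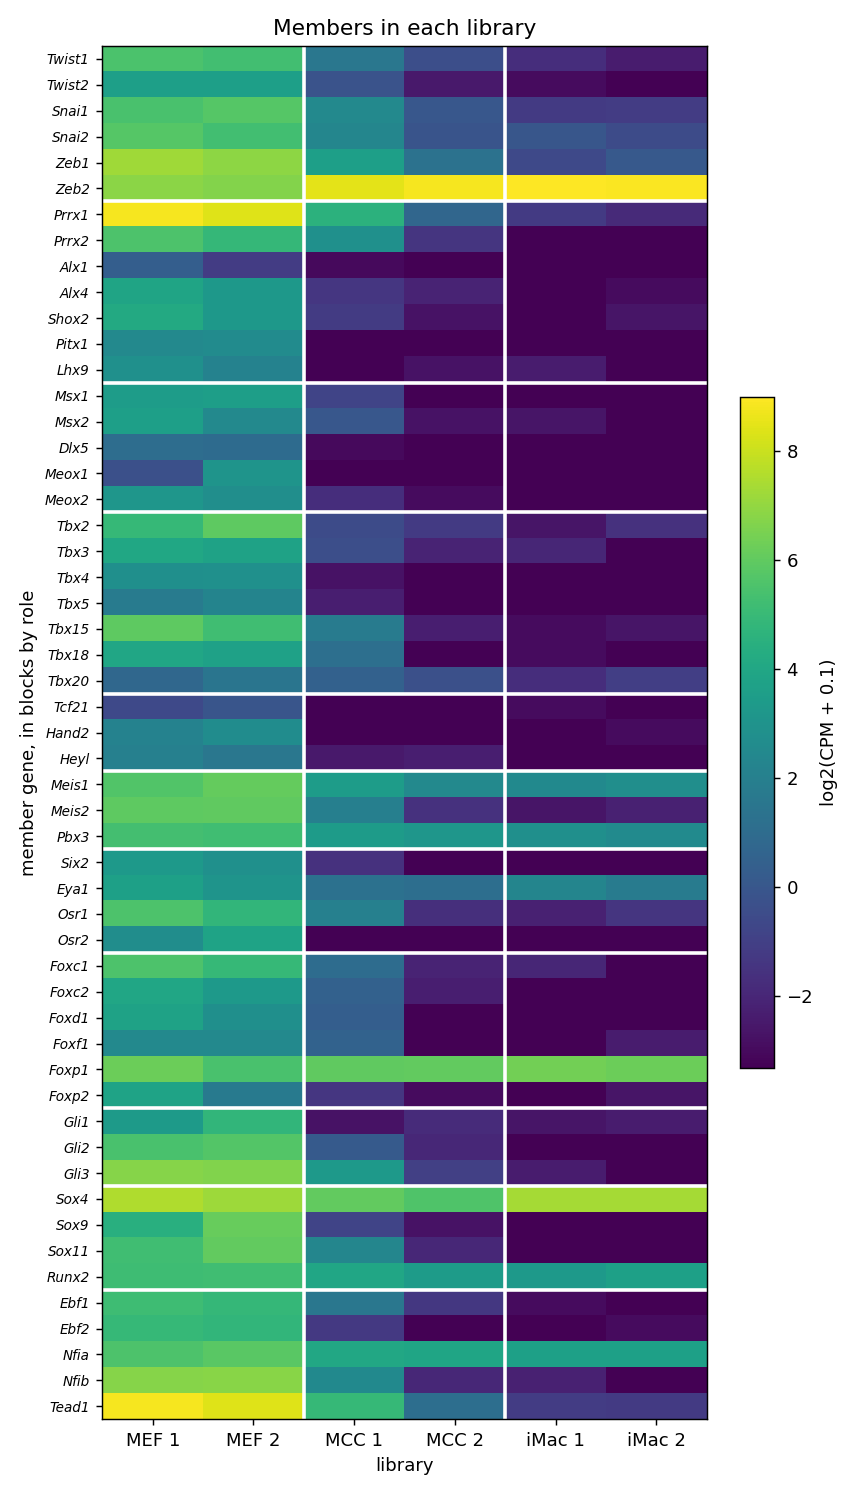
Level of each of the 53 members in the 6 libraries, as log2(CPM + 0.1), with genes in blocks by role on the vertical axis and libraries on the horizontal axis. The rows are mostly bright in MEF and dark in iMac; the row of Zeb2 is brighter in the MCC and iMac libraries, and those of Foxp1 and Sox4 stay bright in iMac.

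The members that edgeR did not call in MCC were Prrx2, Meox1, Tbx18, Tbx20, Foxd1, Foxf1, Foxp1 and Sox11. Of these, limma-voom called Foxd1, Foxf1, Prrx2, Sox11 and Tbx18 lower and lost the call of Foxp2. The same 5 were called lower without MCC replicate 1, and Foxd1, Prrx2, Sox11 and Tbx18 also without MCC replicate 2. DESeq2 and the fit without a filter called Meox1 lower. In iMac edgeR did not call Foxp1, Sox4 and Meox1; DESeq2 and the fit without a filter called Meox1 there too, and limma-voom lost the call of Foxp2. A mean of 1 CPM or more was reached by 51 members in MEF, 25 in MCC and 8 in iMac. Over both libraries of a group, 17 members had no counts in iMac and 14 had 1 to 3 counts. In MCC 5 members had no counts and 4 had 1 to 3. For such genes a fold is given as a bound, taken against a floor of 3 counts over the group, or as a ratio with a 95% interval that covers counting error only. Members without counts in iMac were at least 16.7-fold (Alx1) to at least 1147-fold (Sox11) lower than in MEF. The size of the bound follows the MEF level.

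**Figure D2:**
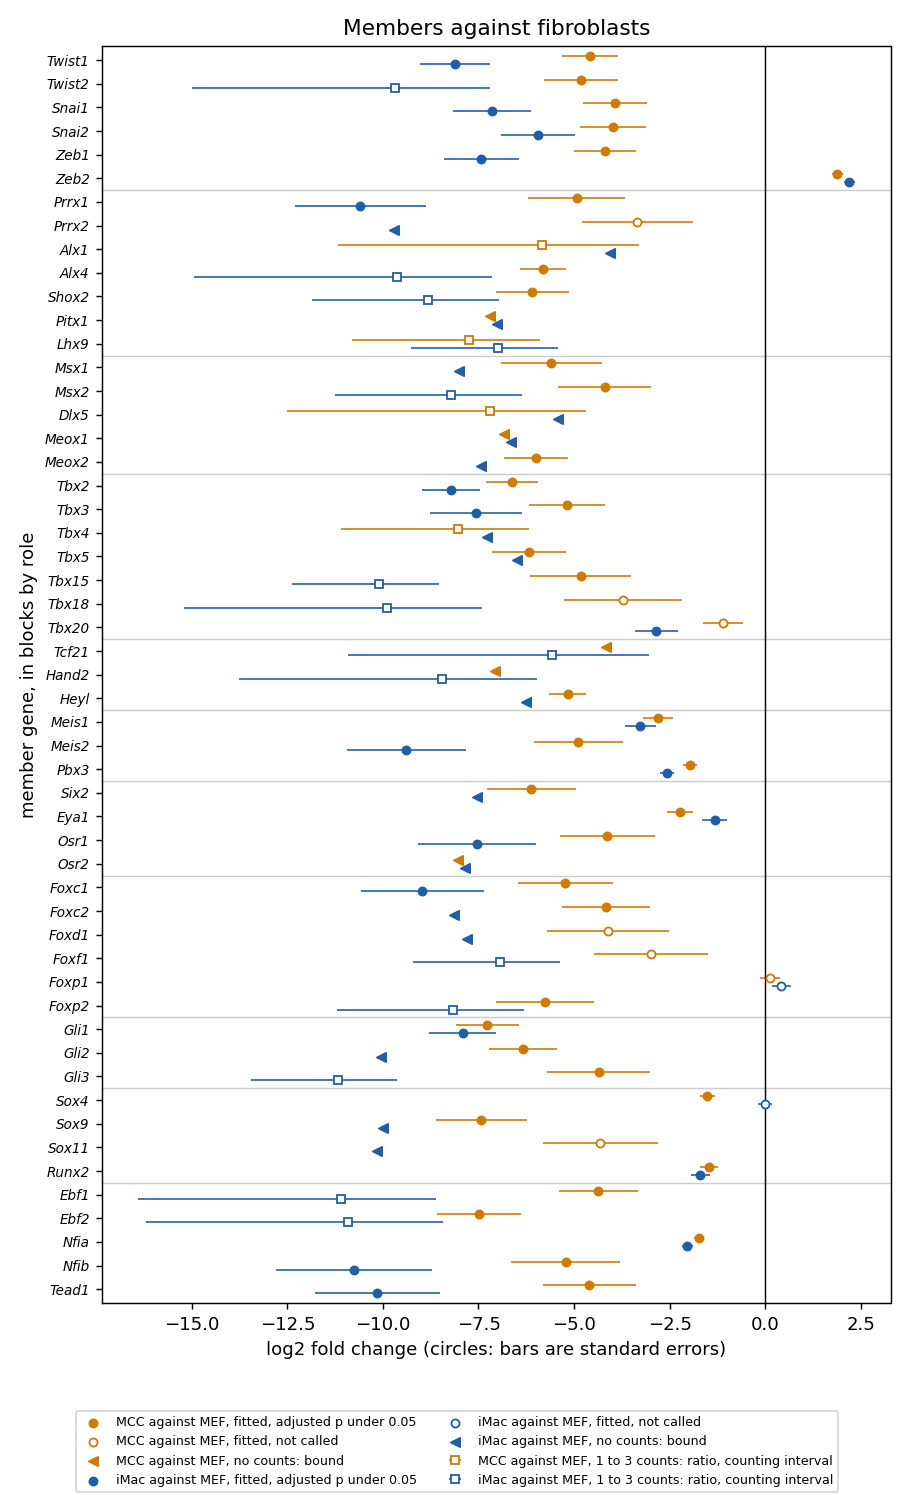
Log2 fold change of each member in MCC and in iMac against MEF. Circles are fitted values with standard errors (filled where the adjusted p was under 0.05), triangles are bounds for members with no counts, and squares are ratios with 95% counting intervals for members with 1 to 3 counts. Zeb2 lies to the right of 0 in both comparisons, Foxp1 lies near 0, and nearly all other members lie to the left.

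How many members were called depended on the MEF and iMac libraries. Without MEF replicate 1 the number called lower in MCC was 29, and without MEF replicate 2 it was 27, beside 19.7% and 18.2% of all genes tested then. Without iMac replicate 1 the number called lower in iMac was 28, as it was without iMac replicate 2, beside 13.4% of all genes each time. Leaving out each of the 6 libraries in turn, 25 members stayed called lower in MCC throughout and 27 stayed called lower in iMac. Zeb2 stayed called higher in both comparisons. The share of all tested genes that stayed called throughout was not computed, so 25 and 27 have no share to be read against. The 19 members whose MCC call was lost at least once were Twist2, Snai1, Snai2, Prrx1, Alx1, Msx1, Msx2, Tbx15, Tcf21, Meis2, Six2, Osr1, Foxc1, Foxc2, Foxp2, Gli3, Ebf1, Nfib and Tead1. The 22 whose iMac call was lost at least once were Snai2, Prrx1, Prrx2, Alx1, Msx1, Msx2, Tbx15, Tbx18, Tbx20, Tcf21, Meis2, Eya1, Osr1, Foxc1, Foxc2, Foxd1, Foxf1, Foxp2, Gli3, Sox11, Nfib and Tead1. None of these genes changed sign against MEF in these fits.

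The factors of the epithelial to mesenchymal transition split: 5 of the 6 fell in both MCC and iMac, and Zeb2 rose. Beside this and the roles below, 29.6% of all tested genes were called lower in MCC and 32.4% in iMac. Zeb1, a zinc-finger repressor of epithelial genes, had 151 and 119 CPM in MEF, 12.4 and 2.41 CPM in MCC, and 0.567 and 0.995 CPM in iMac. Every MCC and iMac library was below both MEF libraries. Its log2 fold change was -4.19 (SE 0.82, edgeR adjusted p = 0.0121) in MCC and -7.43 (SE 0.98, adjusted p = 0.00347) in iMac. Zeb2, its paralogue, had 114 and 105 CPM in MEF, 358 and 451 CPM in MCC, and 512 and 491 CPM in iMac. Here the groups were separate in the opposite order, with the MEF libraries lowest. The log2 fold change of Zeb2 was 1.88 (SE 0.14, edgeR adjusted p = 0.00107) in MCC and 2.19 (SE 0.15, adjusted p = 0.000586) in iMac, and it ran from 1.81 to 2.05 and from 2.11 to 2.26 over the alternatives. Zeb2 lies on chromosome 2 (GRCm38, 44983632 to 45117395, minus strand).

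Snai1, which encodes Snail, had 44.3 and 53.9 CPM in MEF, 5.54 and 0.910 CPM in MCC, and 0.328 and 0.362 CPM in iMac. Both MCC libraries were below both MEF libraries, but they differed from each other several-fold. The log2 fold change was -3.93 (SE 0.84, edgeR adjusted p = 0.0153) in MCC and -7.14 (SE 1.02, adjusted p = 0.00426) in iMac. The gene spans 167538195 to 167542814 on the plus strand of chromosome 2, directly after the window shown above. The other 3 factors of the group, Snai2, Twist1 and Twist2, ranged from 12.2 to 54.1 CPM in MEF, from 0.0803 to 5.02 CPM in MCC and from 0 to 0.896 CPM in iMac. The MCC calls of Snai1, Snai2 and Twist2 were lost without MEF replicate 2. An antisense gene shares 46.5% of the exonic bases of Twist2.

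Prrx1, a paired-type homeobox factor of limb bud mesenchyme, had the highest mean MEF level per length among the members, though Snai1 was above it in MEF replicate 2. It had 462 and 335 CPM in MEF, 24.4 and 1.58 CPM in MCC, and 0.328 and 0.181 CPM in iMac. The MCC libraries differed widely from each other and both lay below MEF. Prrx1 had a log2 fold change of -4.94 (SE 1.27, edgeR adjusted p = 0.0259) in MCC, which was not called without either MEF library or either iMac library. In iMac it was -10.59 (SE 1.72, adjusted p = 0.00610), a call lost without either iMac library. Its paralogue Prrx2 had 47.4 and 29.1 CPM in MEF, 7.23 and 0.268 CPM in MCC, and no counts in iMac. Prrx2 was at least 844-fold lower in iMac than in MEF, and in MCC its log2 fold change of -3.35 (SE 1.45) did not pass (edgeR adjusted p = 0.123). Shox2, which shapes the proximal limb, had 17.7 and 9.56 CPM in MEF, 0.338 and 0.0535 CPM in MCC, and 0 and 0.0603 CPM in iMac. With 2 counts in iMac, the MEF level of Shox2 was 450-fold higher (95% counting interval 124 to 3723). Of the 7 paired-type and LIM homeobox factors, 6 were called lower in MCC and 7 in iMac, beside 29.6% and 32.4% of all genes. Pitx1, which specifies the hindlimb, had 5.42 and 6.16 CPM in MEF and no counts in the other 4 libraries.

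Of the 5 Msx, Dlx and Meox factors, 4 were called lower in MCC and 4 in iMac, beside 29.6% and 32.4% of all genes. Msx1, a homeobox factor that keeps limb and craniofacial mesenchyme undifferentiated, had 11.1 and 12.0 CPM in MEF, 0.468 and 0 CPM in MCC, and no counts in iMac. Its MEF libraries agreed closely, and iMac was at least 257-fold lower. Msx2 had 12.5 and 5.46 CPM in MEF, 0.910 and 0.0535 CPM in MCC, and 0.0597 and 0 CPM in iMac. Meox2, a factor of somite and limb muscle development, had 8.89 and 6.62 CPM in MEF, 0.208 and 0.0268 CPM in MCC, and no counts in iMac, at least 172-fold lower. The uncalled gene was Meox1, a somite factor, with 0.705 and 8.19 CPM in MEF and no counts elsewhere. Its 2 MEF libraries differed more than those of any other member, and its edgeR adjusted p was 0.0536 in MCC and 0.0527 in iMac. The MCC call of Msx1 was lost without either MEF library, and that of Msx2 without either MEF or either iMac library. The iMac call of Msx1 was lost without either MEF or either iMac library, and that of Msx2 without either iMac library.

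Among the T-box factors, 5 of 7 were called lower in MCC and all 7 in iMac, beside 29.6% and 32.4% of all genes. Tbx15, a factor of limb and skeletal mesenchyme, had 60.9 and 37.8 CPM in MEF, 3.35 and 0.107 CPM in MCC, and 0.0299 and 0.0603 CPM in iMac. Its MEF level was 1090-fold that of iMac (95% counting interval 373 to 5287, from 3 counts in iMac). Tbx2, a repressor expressed in limb bud margins, had 30.3 and 61.6 CPM in MEF, 0.598 and 0.321 CPM in MCC, and 0.0597 and 0.241 CPM in iMac. Tbx2 had a log2 fold change of -6.63 (SE 0.68, edgeR adjusted p = 0.00218) in MCC and -8.22 (SE 0.76, adjusted p = 0.00136) in iMac. Tbx3, its close relative, had 16.05 and 13.8 CPM in MEF, 0.676 and 0.134 CPM in MCC, and 0.149 and 0 CPM in iMac. The forelimb factor Tbx5 and the hindlimb factor Tbx4 were both measured in MEF, at 3.44 and 4.66 CPM and at 6.83 and 7.11 CPM, and neither had a count in iMac. Tbx18 and Tbx20 were not called in MCC. Tbx18 had 15.3 and 13.2 CPM in MEF but 2.16 and 0 CPM in MCC (edgeR adjusted p = 0.0968), and 20.6% of its exonic bases overlap an antisense gene. Tbx20, known for its role in the heart, had 1.65 and 2.70 CPM in MEF, 1.33 and 0.696 CPM in MCC, and 0.209 and 0.392 CPM in iMac.

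The 3 basic helix-loop-helix factors of mesoderm were low in MEF and were called lower in both comparisons. Hand2, which sets the posterior limb bud, had 4.28 and 6.23 CPM in MEF, no counts in MCC, and 0 and 0.0302 CPM in iMac. It was at least 134-fold lower in MCC than in MEF. An antisense gene covers 19.6% of its exonic bases. Heyl, a Notch-responsive repressor, had 4.04 and 2.83 CPM in MEF, 0.0780 and 0.107 CPM in MCC, and no counts in iMac. Tcf21, a factor of visceral and cardiac mesenchyme, had 0.569 and 0.850 CPM in MEF, no counts in MCC, and 0.0299 and 0 CPM in iMac. Its MCC call was lost without MEF replicate 2 and its iMac call without any 1 of the MEF or iMac libraries.

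All 3 TALE homeobox factors, partners of Hox proteins on DNA, fell in both comparisons, but to different depths. Meis2 had 61.4 and 63.8 CPM in MEF, 3.95 and 0.241 CPM in MCC, and 0.0597 and 0.121 CPM in iMac. Meis1, which also acts in blood stem cells, had 50.9 and 67.3 CPM in MEF, 11.3 and 5.54 CPM in MCC, and 5.64 and 6.66 CPM in iMac. Thus Meis1 kept several CPM in every library. Its log2 fold change was -2.81 (SE 0.39, edgeR adjusted p = 0.00470) in MCC and -3.26 (SE 0.40, adjusted p = 0.00274) in iMac. Pbx3 had 39.7 and 37.5 CPM in MEF, 10.9 and 8.80 CPM in MCC, and 7.05 and 5.94 CPM in iMac, with log2 fold changes of -1.97 (SE 0.18, edgeR adjusted p = 0.00163) and -2.57 (SE 0.18, adjusted p = 0.000699). Overlapping genes, partly on the same strand, share 18.3% of the exonic bases of Meis1. The MCC call of Meis2 was lost without either MEF or either iMac library.

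Six2, Eya1, Osr1 and Osr2 were all called lower in both comparisons. Osr1, a zinc-finger factor of limb connective tissue, had 46.7 and 27.5 CPM in MEF, 4.01 and 0.214 CPM in MCC, and 0.119 and 0.271 CPM in iMac. Its paralogue Osr2 had 6.42 and 14.1 CPM in MEF and no counts in MCC or iMac, at least 262-fold and at least 231-fold lower. Eya1, a phosphatase that serves as a co-activator of Six2 and its relatives, had 12.6 and 8.09 CPM in MEF, 2.31 and 2.09 CPM in MCC, and 4.84 and 3.41 CPM in iMac. Eya1 was lowest in MCC, with a log2 fold change of -2.23 (SE 0.34, edgeR adjusted p = 0.00605) there and -1.32 (SE 0.33, adjusted p = 0.0207) in iMac. The iMac call of Eya1 was lost without MEF replicate 1 and without either iMac library. The MCC call of Osr1 was lost without either MEF or either iMac library.

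In the forkhead group 3 of 6 were called lower in MCC and 5 of 6 in iMac, beside 29.6% and 32.4% of all genes. The exception in both was Foxp1, a repressor that also acts in B cells and monocytes, with 74.1 and 44.0 CPM in MEF, 63.0 and 65.8 CPM in MCC, and 82.2 and 75.9 CPM in iMac. Both MCC values of Foxp1 lay between the MEF values and both iMac values lay above them. Its log2 fold change was 0.12 (SE 0.25, edgeR adjusted p = 0.696) in MCC and 0.42 (SE 0.25, adjusted p = 0.205) in iMac. Without MEF replicate 1 both differences were called, at 0.56 (edgeR adjusted p = 0.0179) and 0.85 (adjusted p = 0.00642), and without MEF replicate 2 the MCC value was -0.15. Foxc1, a factor of mesenchyme and bone, had 47.6 and 30.8 CPM in MEF, 1.95 and 0.134 CPM in MCC, and 0.149 and 0 CPM in iMac. Foxc2 had 15.6 and 9.84 CPM in MEF, 1.30 and 0.107 CPM in MCC, and no counts in iMac, at least 281-fold lower. Foxd1 and Foxf1, uncalled in MCC, had 1.17 and 1.38 CPM in MCC replicate 1 and no counts in MCC replicate 2.

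**Figure D3:**
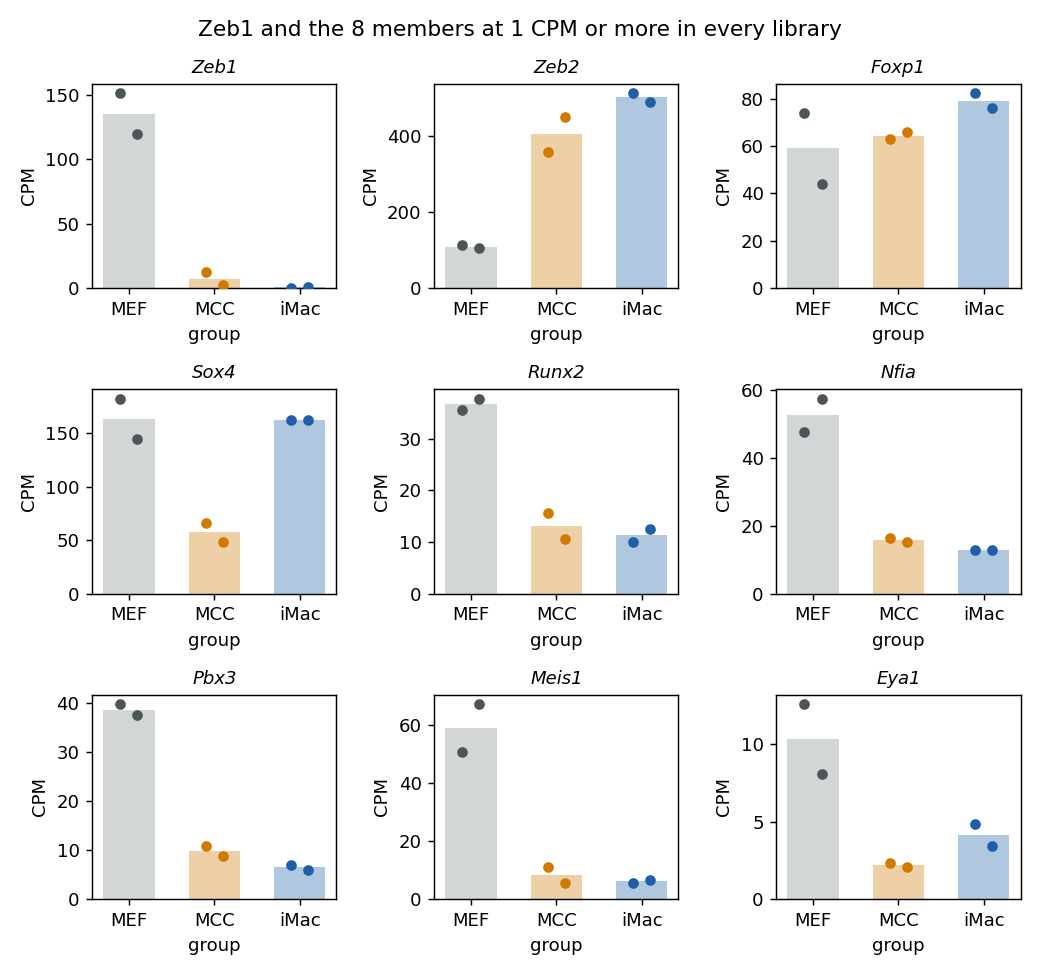
CPM of Zeb1 and of the 8 members that reached 1 CPM in every library, with points for libraries and bars for group means (n = 2). Zeb2 rises from MEF to iMac, Foxp1 stays within a narrow range, Sox4 is low in MCC only, and Runx2, Nfia, Pbx3, Meis1 and Eya1 fall but keep 1 CPM or more.

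The 3 Gli factors, which carry the Hedgehog signal to the nucleus, fell in both comparisons. Gli1, itself a Hedgehog target, had 10.2 and 27.6 CPM in MEF, 0.0520 and 0.187 CPM in MCC, and 0.0597 and 0.0905 CPM in iMac. Gli2, the main activator, had 43.5 and 51.9 CPM in MEF, 1.01 and 0.161 CPM in MCC, and no counts in iMac, at least 1062-fold lower. Gli3, the main repressor in the limb, had 107 and 100.1 CPM in MEF, 9.73 and 0.401 CPM in MCC, and 0.0896 and 0 CPM in iMac. The MCC call of Gli3 was lost without either MEF or either iMac library, while Gli1 and Gli2 kept theirs. Among 14 other Hedgehog pathway genes, 13 were tested, of which 9 were called lower in MCC, 11 in iMac and 0 higher in either. At an unadjusted p under 0.05 the numbers lower were 10 and 12, with DESeq2 10 and 13, and with limma-voom 11 and 8, and 0 were higher in each of these. Over all tested genes, edgeR called 29.6% lower in MCC and 32.4% in iMac. These shares were 33.6% and 35% at an unadjusted p, 32.4% and 34.9% with DESeq2, and 31.7% and 31.6% with limma-voom. The largest difference among the tested Hedgehog genes was in Hhip, a Hedgehog-binding antagonist and target. It had 18.2 and 46.5 CPM in MEF, 0.0520 and 0 CPM in MCC and none in iMac. The co-receptor gene Boc had 105 and 131 CPM in MEF, 8.06 and 2.35 CPM in MCC, and 0.388 and 0.332 CPM in iMac. Smo, the signal transducer, kept a larger part of its level, with log2 fold changes of -0.86 and -0.93. Without either iMac library the number of Hedgehog genes called lower in iMac fell, as did the share over all genes.

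Sox4 was the member with the most distinct course. This SoxC factor, active in progenitors of many lineages, had 182 and 145 CPM in MEF, 66.4 and 48.2 CPM in MCC, and 163 and 162 CPM in iMac. Both MCC libraries were below all the others, and both iMac libraries lay between the MEF libraries. Its log2 fold change was -1.51 (SE 0.20, edgeR adjusted p = 0.00404) in MCC and -0.01 (SE 0.19, adjusted p = 0.970) in iMac against MEF. Between iMac and MCC it was 1.502 with an edgeR adjusted p of 0.0839, which missed the threshold. That difference was called by DESeq2 (adjusted p = 8.55e-09), by limma-voom (0.0452), without the filter (0.0455), with only the 2 groups in the fit (0.0159) and without MCC replicate 2 (0.0389). Over all alternatives the iMac against MCC value ran from 1.16 to 1.73, with adjusted p from 8.55e-09 to 0.767. Sox4 is a gene of 1 exon on chromosome 13 (GRCm38, 28948919 to 28953713, minus strand), and 54.6% of its exonic bases are shared with the antisense gene Gm26735. The sources used here do not say whether counting used strand, so reads of the 2 genes may not have been told apart.

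The other SoxC member, Sox11, had 36.9 and 65.7 CPM in MEF, 4.99 and 0.161 CPM in MCC, and no counts in iMac. It was at least 1147-fold lower in iMac and not called in MCC (edgeR adjusted p = 0.0736). Sox9, the cartilage factor, had 21.7 and 69.6 CPM in MEF, 0.468 and 0.0535 CPM in MCC, and no counts in iMac, at least 1028-fold lower. Runx2, the osteoblast factor, was singled out after its values were seen because it kept a high level: 35.6 and 37.7 CPM in MEF, 15.7 and 10.6 CPM in MCC, and 10.03 and 12.6 CPM in iMac. The MCC and iMac libraries overlapped and all lay below MEF. Runx2 had log2 fold changes of -1.48 (SE 0.24, edgeR adjusted p = 0.00730) and -1.69 (SE 0.24, adjusted p = 0.00428).

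All 5 Ebf, Nfi and Tead factors were called lower in both comparisons. Tead1, the DNA-binding partner of the Hippo effectors Yap and Taz, had 450 and 339 CPM in MEF, 30.4 and 2.11 CPM in MCC, and 0.358 and 0.332 CPM in iMac. Its log2 fold change was -4.60 (SE 1.22, edgeR adjusted p = 0.0282) in MCC and -10.15 (SE 1.63, adjusted p = 0.00600) in iMac. Nfib, a nuclear factor I protein, had 107 and 113 CPM in MEF, 5.72 and 0.161 CPM in MCC, and 0.119 and 0 CPM in iMac. The MCC calls of Tead1 and Nfib were lost without either MEF or either iMac library, and their iMac calls without either iMac library. Nfia, of the same family as Nfib, had 47.7 and 57.3 CPM in MEF, 16.4 and 15.2 CPM in MCC, and 12.8 and 12.8 CPM in iMac. Nfia fell less, with log2 fold changes of -1.73 (SE 0.14, edgeR adjusted p = 0.00123) and -2.04 (SE 0.14, adjusted p = 0.000674), and kept its call without each library. The remaining Ebf1 and Ebf2 ranged from 27.5 to 36.3 CPM in MEF and had 1 count each in iMac.

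Genes around Tead1 were read from a list of 15 co-factors, targets and kinases of the Hippo pathway, of which 13 were in the table and 12 were tested. In MCC 6 were called lower and 2 higher, beside 29.6% and 23.4% of all tested genes. In iMac 9 were called lower and 2 higher, beside 32.4% and 25.1%. Wwtr1, which encodes Taz, had 223 and 194 CPM in MEF, 14.3 and 1.04 CPM in MCC, and 0.299 and 0.151 CPM in iMac. Stk4, the upstream kinase, was called higher in both, with 52.2 and 45.03 CPM in MEF, 136 and 144 CPM in MCC, and 150 and 143 CPM in iMac. The number called lower in MCC fell sharply when either MEF library or either iMac library was left out. The number lower in iMac fell sharply without either iMac library. The shares over all genes fell in these fits too, but less. The number called higher in MCC stayed at 2 with DESeq2, with limma-voom, with the minimum of 5 CPM and without MEF replicate 2, and was 1 under every other alternative. In iMac the number higher was 1 without either iMac library. Of the epithelial genes of the kind that Snail, Twist and Zeb repress, those tested were not called higher. The table holds 14 such genes, and 7 of them were tested. edgeR called 2 lower in MCC, a share close to the 29.6% over all genes, and 5 lower in iMac, beside 32.4%. It called 0 higher in either, beside 23.4% and 25.1% of all genes. The MCC number was 5 with limma-voom, beside 31.7% of all genes. It also changed when a MEF or MCC library was left out. DESeq2 and limma-voom also called 0 higher, and 0 were higher at an unadjusted p under 0.05. The summed level of the epithelial genes was lower in every MCC and iMac library than in both MEF libraries. An epithelial gene that passed the filter only through its MEF level could hardly be called higher. For the upward direction, the shares over all genes are therefore not a like comparison. Whether lower repressor levels released epithelial genes was not tested. Without either iMac library the number lower in iMac fell, as did the share over all genes. Cdh1, which encodes E-cadherin, had 0.163 and 0.335 CPM in MEF, 0.416 and 0.0803 CPM in MCC, and no counts in iMac.

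The 8 members that reached 1 CPM in every library were Zeb2, Foxp1, Sox4, Runx2, Nfia, Pbx3, Meis1 and Eya1. They make up 15.1% of the members, while 59.7% of all tested genes reached that level. Per kilobase of exon in the GENCODE M21 annotation of GRCm38, the highest mean levels in MEF were those of Prrx1 at 36.0, Sox4 at 34.1, Snai1 at 30.3, Tead1 at 29.1 and Twist1 at 26.1 CPM per kb. Each of these neighbours overlapped the next over the 2 MEF libraries, so their order was not resolved. In iMac the order was Sox4 at 33.9, Zeb2 at 25.2 and Foxp1 at 5.75 CPM per kb, followed by Runx2 at 1.28, Nfia at 1.18 and Pbx3 at 1.06. The first 3 were separate from each other in both iMac libraries, whereas Runx2 overlapped both Nfia and Pbx3. Both Pbx3 values lay below both Nfia values.

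Within several families a different gene held the largest share in iMac than in MEF. Per kb of exon, Zeb2 made up 29.5% of the summed Zeb1 and Zeb2 level in MEF, 96.6% in MCC and 99.7% in iMac. Runx2 made up 58.6% of the summed Runx level in MEF, 10.2% in MCC and 9.54% in iMac. Its paralogue Runx1 had 42.1 and 24.9 CPM in MEF, 104 and 100.4 CPM in MCC, and 134 and 124 CPM in iMac, with log2 fold changes of 1.61 (edgeR adjusted p = 0.00678) and 1.95 (adjusted p = 0.00349). Runx3, which acts in lymphoid and myeloid cells, was highest in MCC, with 0.949 and 0.515 CPM in MEF, 23.3 and 22.1 CPM in MCC, and 7.08 and 7.06 CPM in iMac. The Runx3 difference between iMac and MCC, at -1.68, was not called (edgeR adjusted p = 0.120).

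Among the Pbx genes the ubiquitous Pbx2 rose, with log2 fold changes of 0.76 (edgeR adjusted p = 0.0195) in MCC and 1.004 (adjusted p = 0.00770) in iMac. The MCC call was lost without MEF replicate 1 and the iMac call without iMac replicate 1. Meis3 had 17.6 and 14.5 CPM in MEF, 13.4 and 9.04 CPM in MCC, and 17.4 and 17.97 CPM in iMac, and made up 31.9% of the summed Meis level per kb in MEF and 90.4% in iMac. The 4 Tead genes fell together, from 67.2 CPM per kb summed in MEF to 3.18 in MCC and 0.215 in iMac. Over 55 paralogues of the members, 46 were tested. In MCC 28 were called lower and 4 higher (Runx1, Runx3, Pbx2 and Eya3), beside 29.6% and 23.4% of all tested genes. In iMac 36 were called lower and 5 higher, beside 32.4% and 25.1%, with Foxp3 at under 1 CPM the addition. The number lower in iMac fell without either iMac library, and the number lower in MCC without either MEF library. The shares over all genes fell in these fits too.

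**Figure D4:**
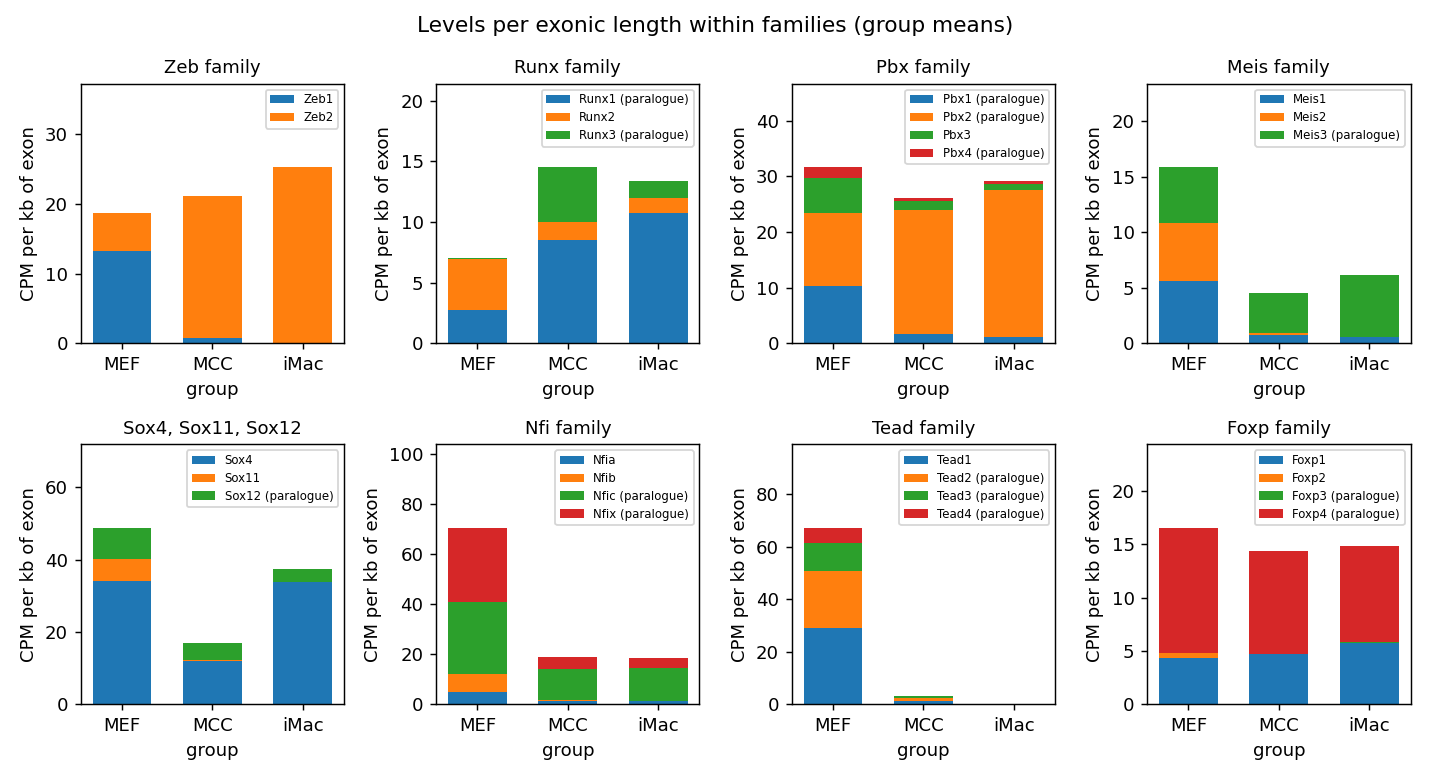
Mean CPM per kb of exon in MEF, MCC and iMac for 8 families that hold a member, stacked by gene, with genes outside the 53 marked as paralogues (n = 2 libraries a group). Zeb1 gives way to Zeb2 and Runx2 to Runx1, Pbx2 takes most of the Pbx level, and all Tead genes fall to near 0.

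The 2 MCC libraries stood apart in what they kept of the members. As a percentage of the mean MEF level, the median over the 53 members was 6.31% in MCC replicate 1 and 0.396% in MCC replicate 2. In iMac it was 0.0907% in replicate 1 and 0% in replicate 2. Of the 53 members, 43 were higher in MCC replicate 1 than in MCC replicate 2. Of the 14435 tested genes at 1 CPM or more in MEF, 7565 were, and their medians were 88.8% and 90.1%. Zeb2, Foxp1, Lhx9, Heyl and Gli1 were higher in replicate 2. A wider set of genes did the same. Over 41 members that had 1 CPM or more in MEF and at most 1% of it in iMac, the medians were 4.53% and 0.345%. Over the 1797 tested genes that met the same conditions, these 41 included, the medians were 4.79% and 0.249%. Higher in MCC replicate 1 were 34 of the 41 and 1544 of the 1797, so the difference was not particular to the members. The 12 fibroblast markers kept 4.77% and 0.610%.

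**Figure D5:**
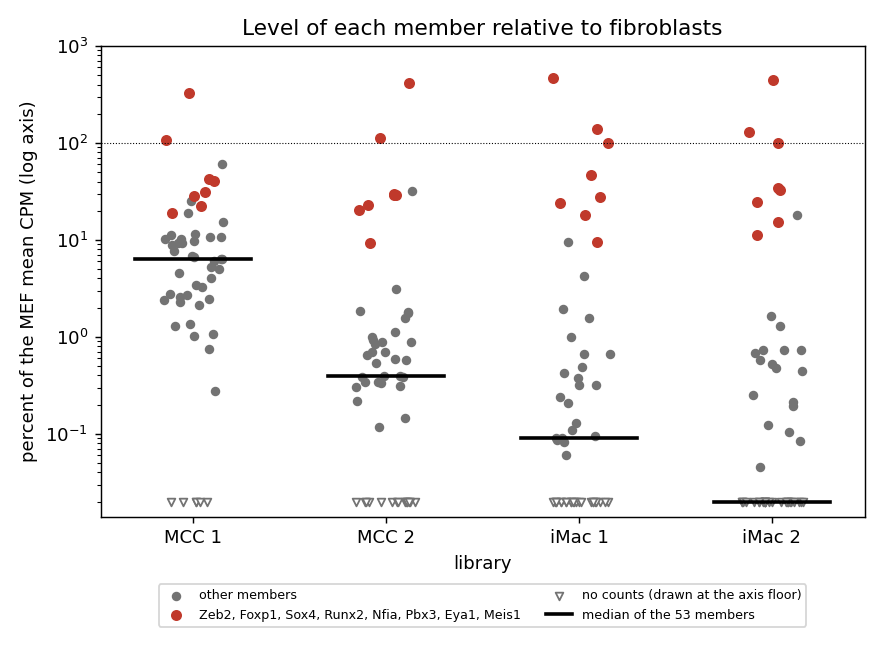
Level of each member in each MCC and iMac library as a percentage of its MEF mean (log axis), with members at 1 CPM or more in every library in red, members without counts at the floor of the axis, and a bar at the median. The median lies at 6.31% in MCC replicate 1 and 0.396% in MCC replicate 2, while the red points stay high in all 4 libraries.

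Markers of other cell types moved with that difference between the MCC libraries. Of 8 neural and glial markers 8 were in the table, with sums of 615 and 585 CPM in MEF, 79.4 and 7.94 CPM in MCC, and 3.11 and 3.47 CPM in iMac; Elavl3 had no counts in MCC and Sox10 none in iMac. The 7 skeletal muscle markers in the table summed to 103 and 24.01 CPM in MEF, 22.7 and 6.02 CPM in MCC, and 1.10 and 2.08 CPM in iMac, with Pax7 at 0 in MCC and iMac and Myod1 at 0 in iMac. The 8 cartilage and bone markers summed to 79.3 and 38.8 CPM in MEF, 20.9 and 2.11 CPM in MCC, and 2.87 and 2.86 CPM in iMac, with Ibsp at 0 in MCC, and with Ibsp, Col2a1, Acan, Sp7, Bglap and Alpl at 0 in iMac. By contrast the 7 endothelial markers summed to 8.37 and 10.3 CPM in MCC, with Erg at 0, and the macrophage markers to 13994 and 13438 CPM. The endothelial sums were 35.5 and 43.7 CPM in MEF and 9.62 and 8.44 CPM in iMac. The 7 B cell markers in the table summed to 56.8 and 37.9 CPM in MCC, nearly all of it Blnk, which macrophages also express, with Pax5 and Igll1 at 0. The part of other cells in the members' MCC levels was not tested.

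Between iMac and MCC no member was called in either direction by edgeR, and 4 genes in all were called, 0.0107% of the tested genes lower and 0.0107% higher. At an unadjusted p under 0.05, 20 members were lower in iMac and 2 higher, beside 10.5% and 7.69% of all genes. DESeq2 called 18 members lower and 1 higher (Sox4), where it called 8.28% of all genes lower and 6.41% higher. limma-voom called 0 lower and 1 higher, again Sox4, where it called 0.242% and 0.543% of all genes. The median log2 fold change of the members was -3.24, or -2.40 with members without counts at their bound. It rested on 1 library: without MCC replicate 1 the median was -0.46, and without MCC replicate 2 edgeR called 23 members lower and Sox4 higher, beside 5.71% and 0.332% of all genes. Against MEF, the members' median in MCC was -7.68 without MCC replicate 1 and -3.86 without MCC replicate 2.

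The MEF libraries also differed in some members. Of the 51 members with a mean of 1 CPM or more in MEF, 7 (13.7%) differed more than 2-fold between them, against 9.83% of the 14435 tested genes at that level. With Alx1, which was under 1 CPM, the members past 2-fold were Meox1, Foxp2, Alx1, Sox9, Gli1, Msx2, Osr2 and Tbx2. Meox1, Sox9, Gli1, Osr2 and Tbx2 were higher in MEF replicate 2, and Foxp2, Alx1 and Msx2 in MEF replicate 1.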

How the data were processed

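Gene counts were deposited by the authors as 1 table of whole-number read counts for 6 libraries. Per the submitters' processing notes, the tools named are STAR and featureCounts and the build is mm10. The annotation, the versions of these tools, the strand setting and the treatment of multi-mapped reads were not given there. Per the labels' protocols, RNA was extracted with Trizol and libraries were made with a VAHTS mRNA-seq kit. All 6 columns matched a label and 0 columns were left unmapped.

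Genes were filtered with filterByExpr by group (18613 of 30445 kept, 11832 removed), scaled with TMM and fitted over all 6 libraries with edgeR 4.0.16 in R 4.3.3 (glmQLFit and glmQLFTest, 2-sided, group only, 3 residual degrees of freedom, prior count 0.125, Benjamini-Hochberg threshold 0.05). The script was tested on simulated data. Alternatives were median-ratio scaling, DESeq2 1.42.0, limma-voom (limma 3.58.1), no filter, a minimum of 5 CPM in 2 libraries, only the groups compared, a replicate block, each library left out in turn and, added after seeing the data, library totals without scaling. With 1 library left in a group, that library is assumed to vary like the others. Exonic lengths came from GENCODE M21 and promoters from RefSeq, both on GRCm38. All 53 members matched 1 GENCODE gene.

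Values in every library are given for the 3 members of each role with the highest MEF mean, for every member called higher or highest outside MEF, and for members that a short count singles out. The members and lists were chosen with earlier results of these data known. Totals of 34389817 to 39174367 counts make 1 count about 0.03 CPM, and intervals and floors cover counting error only.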

Additional observations from a re-analysis of the deposited data

How the results depend on the processing

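With 2 libraries a group, a call rests on 3 residual degrees of freedom, and members at a few counts per library are limited by depth. With each library left out in turn, the number of members called lower ran from 27 to 48 in MCC and from 28 to 50 in iMac, and the number called higher from 1 to 2 in each, the addition being Foxp1 without MEF replicate 1. Between iMac and MCC these numbers ran from 0 to 23 lower and from 0 to 1 higher. DESeq2 called 18 members lower and 1 higher in iMac than in MCC. Limma-voom, the fit without a filter and the fit of only these 2 groups each called 1 higher, Sox4. The fit of only these 2 groups tested just 19 of the members and called 0 of those lower. Over the 15859 genes in that fit, 4.24% were called lower in iMac than in MCC and 4.36% higher. Other alternatives left the numbers called against MEF within 1.5 times their values, from 35 to 48 lower in MCC and from 40 to 50 in iMac; the lowest in iMac came from the minimum of 5 CPM, which tested 43 members. Median-ratio scaling moved the median of all genes in MCC from -0.05 to -0.12, and the call of each member stayed as it was.

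Of the members' fold changes listed here, none was called after its sign turned. Sox4 in iMac against MEF was 0.00085 with limma-voom, 0.0093 without a filter, 0.0104 with the minimum of 5 CPM and 0.0056 with a replicate block, and ran from -0.19 to 0.18 with 1 library left out. Foxp1 in MCC against MEF ran from -0.15 to 0.56. Between iMac and MCC, leaving out 1 library gave -5.58 to 2.40 for Ebf2, -7.69 to 3.79 for Foxf1, -5.58 to 0.12 for Foxp2, -1.31 to 0.37 for Gli1, -3.14 to 3.78 for Lhx9, -1.01 to 0.13 for Meis1, -0.61 to 0.069 for Runx2 and -8.33 to 2.40 for Tbx18. The cause was not tested.

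The labels do not say whether the replicate numbers pair the libraries, and no pairing was assumed: the deviations of same-numbered libraries correlated at 0.131 between MEF and MCC, -0.00688 between MEF and iMac and 0.00226 between MCC and iMac over genes. With a replicate block, 45 members were called lower in MCC and 49 in iMac, Meox1 being gained in both and Foxf1 lost in iMac.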
